A study of Mus musculus with 2 samples.

Results

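The miR-199 and miR-214 genes are 4 miRNA genes that lie antisense to dynamin genes: Mir214, Mir199a-2, Mir199b and Mir199a-1. They were taken by gene name from the 2202 miRNA genes counted in the hearts of male adult mice, 18 to 20 months old, of the strain B6CASTF1/J, a first-generation cross of C57BL/6J with CAST/EiJ. Both libraries belong to 1 group, so the data hold no comparison between conditions. They are labelled biological replicates 2 and 1 and have their own biosamples, but share 1 donor record. Nothing says that they came from separate animals, so p-values measure the counting error or the spread of these 2 libraries only, which may be technical.

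A miRNA is cut from a hairpin precursor, which can give a mature RNA from its 5′ arm (5p) and another from its 3′ arm (3p). The mature RNA pairs with messenger RNAs through its seed, bases 2 to 8, and lowers their output. miR-199 and miR-214 are known from connective tissue and other mesenchymal cells, and both have been studied in the heart. miR-214 protects mouse heart muscle from calcium overload by repressing the sodium-calcium exchanger. miR-199a-5p represses Hif1a in cardiac myocytes of rodents, miR-199a-3p drives division of rodent cardiomyocytes, and miR-199b has been tied to calcineurin signalling in the failing mouse heart. Dynamins are enzymes that pinch off membrane vesicles.

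The mature sequences below, from RefSeq with seeds in capitals, show which of the genes can be told apart by their reads. The miR-199 3p sequence is listed for Mir199a-2, Mir199b and Mir199a-1 alike. The miR-199a-5p sequence is listed for Mir199a-2 and Mir199a-1. For Mir199b the table lists the 3p sequence. miR-761, from Mir761 on chromosome 4, has the seed of miR-214-3p and is shown for that reason.
miR-214-3p: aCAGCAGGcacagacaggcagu
miR-761: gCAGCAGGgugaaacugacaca
miR-214-5p: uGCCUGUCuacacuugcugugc
miR-199a-3p and miR-199b-3p: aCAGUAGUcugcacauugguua
miR-199a-5p: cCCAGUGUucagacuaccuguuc

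The hairpins, with the listed mature sequences in capitals, show the bases around those sequences. Each was identical between RefSeq and GENCODE in sequence and position (GRCm38, mm10). The hairpins of Mir214, Mir199a-2 and Mir199b are annotated with 110 bases and that of Mir199a-1 with 70.
Mir214: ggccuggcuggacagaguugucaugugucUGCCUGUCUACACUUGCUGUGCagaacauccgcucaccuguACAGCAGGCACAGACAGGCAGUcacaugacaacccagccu
Mir199a-2: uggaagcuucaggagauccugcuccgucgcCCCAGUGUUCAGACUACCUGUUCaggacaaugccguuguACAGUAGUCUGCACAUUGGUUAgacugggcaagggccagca
Mir199b: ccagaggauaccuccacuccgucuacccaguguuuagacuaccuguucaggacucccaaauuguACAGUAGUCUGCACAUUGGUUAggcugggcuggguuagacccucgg
Mir199a-1: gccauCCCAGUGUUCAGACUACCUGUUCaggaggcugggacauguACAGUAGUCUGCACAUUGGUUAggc

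Mir214 (ENSMUSG00000065516.1) lies at chr1:162223368-162223477 on the plus strand, and Mir199a-2 (ENSMUSG00000070126.1) at chr1:162217814-162217923 on the same strand. A gap of 5444 bases separates them. Both overlap exons of the long noncoding gene Dnm3os (chr1:162217623-162225550, plus strand) and an intron of Dnm3, which is on the opposite strand. Mir199b (ENSMUSG00000092807.1, chr2:32318460-32318569, plus strand) lies opposite an intron of Dnm1. Mir199a-1 (ENSMUSG00000065547.1, chr9:21496495-21496564, minus strand) lies opposite an intron of Dnm2. The only other miRNA gene within 10000 bases of a member was Gm23363, 116 bases from Mir199b, with 1 read in each library.

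The libraries held 5284446 reads in miRNA genes in replicate 2 and 3037063 in replicate 1, or 27% and 32.1% of all reads. Reads that mapped to several places, which belong to no gene count, made up 32.5% of all reads in replicate 2 and 40.7% in replicate 1. The miRNAs of cardiac myosin genes, Mir208a (9154 and 5184 CPM in replicates 2 and 1) and Mir499 (5487 and 5559 CPM), were present in both. CPM means reads per 1000000 reads in miRNA genes. Of the 4 genes, 3 reached 10 reads in each library, as did 14.6% of all 2202 miRNA genes.

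Nearly all counted reads of the 4 genes came from Mir214. Replicate 2 had 20122 of its reads and replicate 1 had 5877, or 3808 and 1935 CPM, and it took place 42 of all genes by mean level. The mean was 2871 ± 1324 CPM (SD, n = 2). Mir214 held 99.61% of the reads of the 4 genes in replicate 2 (99.51 to 99.69, 95% Wilson interval) and 99.12% in replicate 1 (98.85 to 99.33). Together the 4 genes took 0.382% of miRNA reads in replicate 2 (0.377 to 0.388) and 0.195% in replicate 1 (0.19 to 0.2).

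The miR-199 genes had 40 reads or fewer each in either library. Mir199b, the copy at Dnm1, had 39 reads (7.38 CPM) in replicate 2, against 40 reads (13.2 CPM) in replicate 1. Its mean was 10.3 ± 4.09 CPM (SD, n = 2), and its place among all genes was 254. Mir199a-2, the neighbour of Mir214, had 37 reads (7 CPM) in replicate 2, against 12 reads (3.95 CPM) in replicate 1, with a mean of 5.48 ± 2.16 CPM (SD, n = 2) and place 301. Mir199a-1, the copy at Dnm2, had 3 reads in replicate 2, against 0 in replicate 1. In replicate 1 the floor of 3 reads is a level of 0.988 CPM, and the 95% exact Poisson interval of 0 reads reaches 1.21 CPM. The 3 reads of replicate 2 are themselves at the floor, so this gene was at the limit of detection in both libraries.

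**Figure D1:**
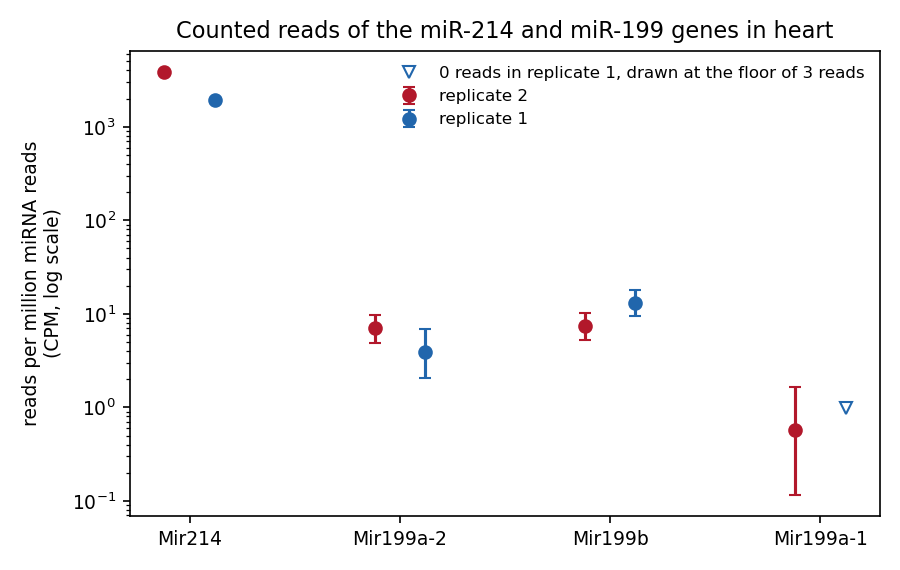
Counted reads of each gene in CPM (log scale) in replicate 2 and replicate 1, with 95% exact Poisson intervals, which are smaller than the symbol for Mir214. Mir214 lay at 3808 and 1935 CPM, Mir199a-2 and Mir199b between 3.95 and 13.2 CPM, and the open triangle marks the 0 reads of Mir199a-1 in replicate 1 at its floor of 0.988 CPM.

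In the order of mean levels of counted reads, Mir214 stood first, then Mir199b, Mir199a-2 and Mir199a-1. Reads that mapped to several places are left out, so this need not be the order of the output of the genes. Mir199b and Mir199a-2 were close in replicate 2, where their 95% Poisson intervals were 5.25 to 10.1 and 4.93 to 9.65 CPM and overlapped. In replicate 1 the intervals were 9.41 to 17.9 CPM for Mir199b and 2.04 to 6.9 CPM for Mir199a-2, without overlap. The mean log2 ratio of Mir199b to Mir199a-2, 0.91 ± 1.17 (SD, n = 2), was smaller than its spread between the libraries. Mir199a-1 lay below both in each library.

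Mir214 had far more counted reads than its neighbour Mir199a-2 in each library. Both lie in exons of Dnm3os on 1 strand. The ratio of Mir214 to Mir199a-2 reads was 544 in replicate 2 (95% exact binomial interval 394 to 773) and 490 in replicate 1 (280 to 948). Their mean on the log2 scale was 9.01 ± 0.11 (SD, n = 2). The ratio of replicate 2 was 1.11 times that of replicate 1 (95% exact interval 0.527 to 2.18), so a difference between the libraries was not detectable at this depth. No test over the 2 libraries was made, because an exact sign-flip test cannot go below p = 0.5 here.

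The counted reads of Mir199b and of the miR-199a copies did not stand in 1 fixed ratio. The counts do not cover the same kinds of read. A read equal to miR-199a-5p matches both miR-199a hairpins, while the like stretch of Mir199b occurs in no other hairpin. The ratios are therefore no measure of the relative output of the genes. Replicate 2 had 39 reads at Mir199b and 40 at both miR-199a genes together, a ratio of 0.975 (95% exact binomial interval 0.611 to 1.55). Replicate 1 had 40 reads at Mir199b and 12 at the miR-199a genes, a ratio of 3.33 (1.71 to 6.98). The ratio of replicate 2 was 0.295 times that of replicate 1 (0.122 to 0.677), so the libraries differed beyond counting error. The mean log2 ratio, 0.85 ± 1.25 (SD, n = 2), was smaller than the spread. Mir214 against Mir199b also differed between the libraries, at 516 in replicate 2 (377 to 726) and 147 in replicate 1 (108 to 206).

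**Figure D2:**
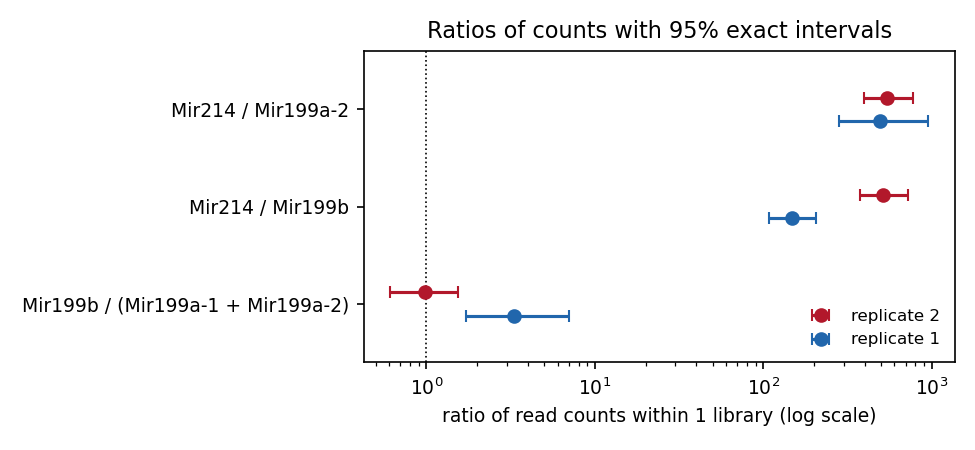
Ratios of read counts within each library (log scale) with 95% exact binomial intervals, replicate 2 above replicate 1, and a dotted line at equal counts. Mir214 over Mir199a-2 was 544 and 490 with overlapping intervals, and Mir199b over both miR-199a copies was 0.975 and 3.33 with intervals that do not overlap.

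Of the neighbouring hairpins with at least 10 reads in both libraries, few pairs differed as much as Mir214 and Mir199a-2. Pairs with a gene below that count, which may differ more, were not ranked. Among 184 pairs of miRNA genes on 1 strand within 10000 bases, each gene with at least 10 reads in both libraries, the pair of Mir214 and Mir199a-2 took place 3. The median pair differed by 2.05 on the log2 scale, or 4.15-fold. Ahead of it were Mir29a over Mir29b-1 (9.39), from the family that represses collagen messages, and Mir322 over Mir450-2 (9.04). The pairs come from 46 loci and share genes, and 97 of them lie on chromosome 12. Among the 87 pairs elsewhere the pair was again at place 3, with a median of 2.84. Its log2 ratio differed by 0.15 between replicates 2 and 1, against a median absolute difference of 0.62 over all pairs.

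**Figure D3:**
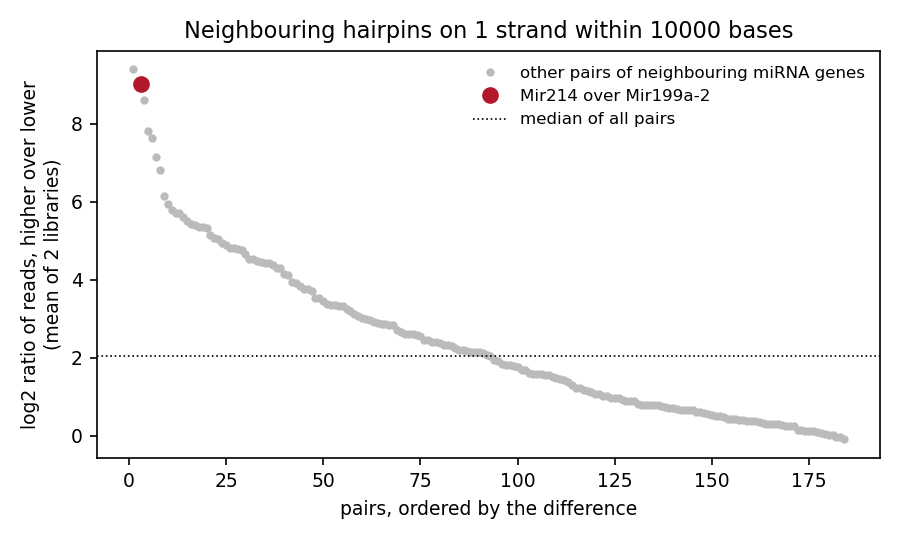
The log2 ratio of reads (higher over lower gene, mean of both libraries) for 184 pairs of neighbouring hairpins, ordered from the largest to the smallest. The pair of Mir214 and Mir199a-2 is at place 3 with 9.01, far above the dotted median of 2.05.

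In the pairs that differed most, the gene with fewer reads usually had a mature sequence that also occurs in another hairpin. Of the 10 pairs at the top, from 7 loci, the lower gene had such a sequence in 9 and the higher gene in 0. Among the other 163 pairs with listed mature sequences, the lower gene had one in 15 (9.2%) and the higher gene in 9 (5.52%). None of the 10 lies on chromosome 12, which holds 97 of all 184 pairs. The shares were not worked out without that chromosome. The limit of 10 pairs was set after the values were seen, and no test was made. Besides Mir199a-2, the lower genes included Mir29b-1, Mir24-1, Mir24-2 and Mirlet7f-1.

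The shared sequences of the miR-199 genes were counted exactly among the annotated hairpins. The 3p sequence of 22 bases occurs in all 3 miR-199 hairpins, and miR-199a-5p, of 23 bases, in 2 of them. Both mature sequences of Mir214 occur in no other hairpin. A read that equals one of these miR-199 sequences therefore matches more than 1 annotated hairpin. How many of the reads that mapped to several places came from miR-199, and so what part this has in the low counts, was not tested.

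Longer reads can separate the copies among the annotated hairpins. At its 3′ end the 3p sequence needs 2 added bases to be found in Mir199a-2 alone and 4 to be found in Mir199b alone. In Mir199a-1 only 3 bases follow it in the annotated hairpin, and with all 3 it still matched another copy. That copy is Mir199b, so its 4 bases mark where the Mir199a-1 annotation ends and not a base known to differ. The genome past that end was not searched. At its 5′ end it needs 5 added bases for Mir199a-2, 5 for Mir199b and 4 for Mir199a-1. The miR-199a-5p sequence needs 5 bases at its 3′ end, or 1 at its 5′ end, to tell Mir199a-2 from Mir199a-1. Of all stretches of 22 bases, 89 of 89 in Mir214, 77 of 89 in Mir199a-2, 81 of 89 in Mir199b and 36 of 49 in Mir199a-1 occur in no other hairpin.

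The 5′ arm of Mir199b holds a stretch that differs from miR-199a-5p at 1 base and is shown here because it is found in no other hairpin. The change from miR-199a-5p to the Mir199b stretch is C10U, counted from 1 at the 5′ end, and the differing base is in capitals below. The seed is the same in both. Reads of this stretch, unlike those of miR-199a-5p, match 1 annotated hairpin. Which arm the counted reads of Mir199b came from cannot be read from counts per gene.
miR-199a-5p: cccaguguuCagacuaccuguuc
Mir199b stretch: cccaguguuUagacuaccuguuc

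Most genes whose listed mature sequences all occur in other hairpins had no reads. RefSeq lists a mature sequence for 1018 of the counted genes. For 53 of them, every listed sequence also occurs in another hairpin, and 5 of these (9.43%) had at least 10 reads in both libraries. Of the 965 others, 282 (29.2%) did. At least 1 read in either library was found for 11 of the 53 (20.8%) and for 622 of the 965 (64.5%). Mir199b is among the 53 because RefSeq lists only 1 sequence for it, which is shared. The stretch in its other arm, found in no other hairpin, is not listed and did not count. With that stretch counted, Mir199b would stand with the others. Mir199b took place 4, Mir199a-2 place 5 and Mir199a-1 place 9 of the 53 by mean level. The 42 of the 53 that had no read in either library all stand below these places, which are the same among the 11 with reads. Among the 5 with at least 10 reads in both, Mir199b and Mir199a-2 had the lowest mean levels, below the median of 16.5 CPM, and Mirlet7c-2 the highest with 1665 CPM. Whether the genes without reads are made in heart is not known from these data.

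**Figure D4:**
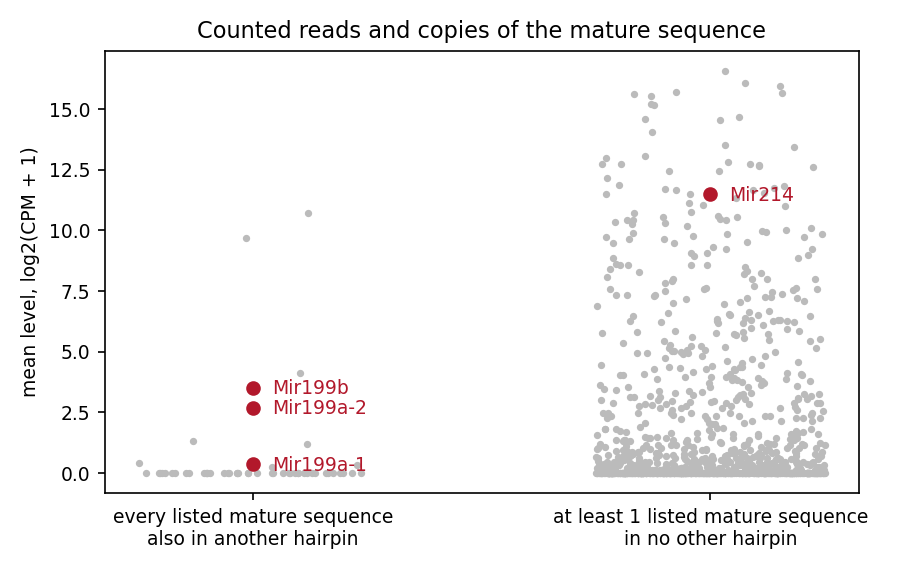
Mean level in log2(CPM + 1), with the members in red. On the left are 53 genes whose listed mature sequences all occur in another hairpin. On the right are 965 genes with at least 1 listed sequence of their own. Mir214 is on the right at 2871 CPM, and Mir199b, Mir199a-2 and Mir199a-1 are on the left at 10.3, 5.48 and 0.284 CPM. Mir199b is placed by the 1 sequence listed for it, and the stretch of its own in the other arm is not listed.

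By seed, miR-761 is the other mature sequence in RefSeq with the seed of miR-214-3p. Its gene Mir761 had 0 reads in replicate 2 and 1 in replicate 1. The gene Mir214 had 20122 and 5877, and these counts cover both of its arms. The seed of miR-199-3p and that of miR-199a-5p are listed for the miR-199 genes and no others. In that table no mature sequence besides miR-214-5p has its seed.

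Mir214 was higher in replicate 2 than in replicate 1, and Mir199b was lower. Mir214 reached 3808 CPM in replicate 2, against 1935 CPM in replicate 1, a log2 ratio of 0.98 (95% exact interval 0.93 to 1.02), with an adjusted p below 1e-300 (exact binomial test, Benjamini-Hochberg). Mir199b reached 7.38 CPM in replicate 2, against 13.2 CPM in replicate 1, a log2 ratio of -0.84 (-1.51 to -0.16; adjusted p = 0.0204 in the same exact test). Mir199a-2 had 7 and 3.95 CPM in replicates 2 and 1, a log2 ratio of 0.83 (-0.15 to 1.90), and did not pass (adjusted p = 0.166, exact binomial test). Mir199a-1 had too few reads to be tested.

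These differences were of a usual size for this pair of libraries. Of 424 tested genes 52.8% differed beyond counting error, 30.9% higher in replicate 2 and 21.9% higher in replicate 1. A larger absolute log2 ratio was found for 28.1% of tested genes in the case of Mir214, 30.9% for Mir199b and 31.4% for Mir199a-2. With the common dispersion of edgeR, which 2.83% of genes passed, the adjusted p was 1 for each of the 3 tested members (unadjusted p = 0.258 for Mir214, 0.362 for Mir199b and 0.443 for Mir199a-2, exact test). That dispersion was estimated from the same 2 libraries, so these values place the members among the other genes and do not show that their levels were alike. In bulk tissue, fewer cells of a type and less RNA per cell cannot be told apart.

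**Figure D5:**
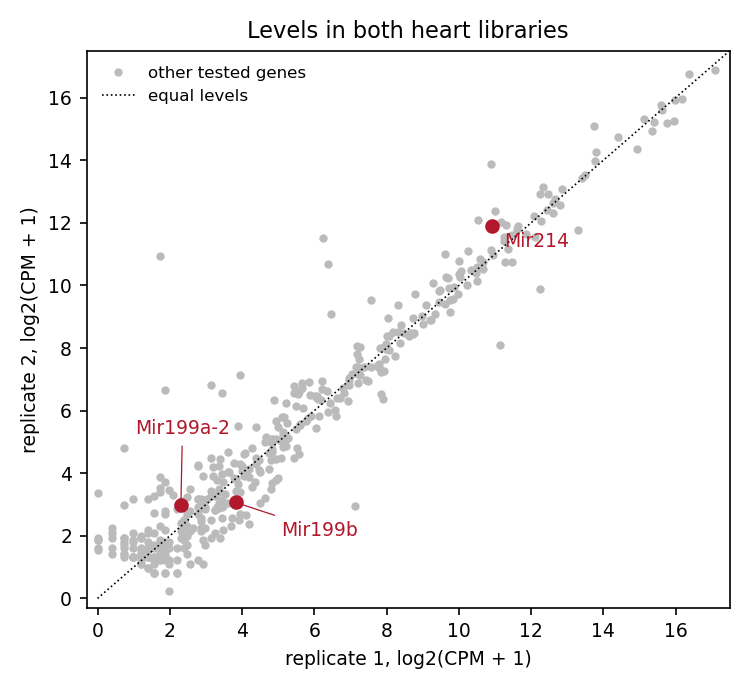
Levels in replicate 2 against replicate 1, both in log2(CPM + 1), for all 424 tested genes, with the 3 tested members in red. Mir214 and Mir199a-2 lie above the dotted line of equal levels and Mir199b below it, inside the scatter of the other genes.

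Markers of other cell types also differed between the libraries. The 7 epithelial miRNAs, all with reads in both libraries, summed to 3874 CPM in replicate 2 and 298 CPM in replicate 1. Mir205 (1963 CPM in replicate 2 and 2.3 in replicate 1) and Mir200c (1652 and 82.6 CPM) carried that sum. Mir200b (21.6 and 32.9 CPM) and Mir429 (12.1 and 19.4 CPM) had the lower level in replicate 2, and Mir200a had 5.49 and 4.61 CPM. The 2 erythroid miRNAs summed to 1219 and 7165 CPM in replicates 2 and 1. Their part in the differences of Mir214 and Mir199b was not tested.

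Other miRNAs known from connective tissue and vessel wall cells differed between the libraries in both directions. Of 8 such genes, 4 were higher in replicate 2 beyond counting error, 1 was higher in replicate 1 and 3 were not called, beside the 30.9% and 21.9% of all tested genes. Their median log2 ratio was 0.34, against 0.07 over all tested genes. Mir21a, a miRNA raised in injured and fibrotic tissue, reached 15190 CPM in replicate 2, against 1899 CPM in replicate 1, which is 8 times as much. Of the miR-29 genes, Mir29b-1 (1.70), Mir29c (0.78) and Mir29a (0.47) were higher in replicate 2, while Mir29b-2 (0.20) was not called. Mir143 of smooth muscle had a ratio of -0.18 and was called. Its neighbour Mir145a (0.02) and Mir152 (0.00) were not.

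Set against these genes, Mir214 had fewer reads than Mir143 and more than Mir152 in both libraries. It had 0.0985 times the reads of Mir143 in replicate 2 and 0.0443 times in replicate 1, and 15.1 and 7.69 times those of Mir152. Against Mir21a the ratio was 0.251 in replicate 2 (95% exact binomial interval 0.247 to 0.255) and 1.02 in replicate 1 (0.982 to 1.06). Against Mir145a, a marker of smooth muscle, it was 1.9 in replicate 2 (1.86 to 1.95) and 0.983 in replicate 1 (0.948 to 1.02). Mir214 could not be told from Mir21a or Mir145a at the depth of replicate 1.

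The genes nearest to each member in level were found by the Euclidean distance of log2(CPM + 1) over the 2 libraries. For Mir214 they were Mir140 (distance 0.29), a miRNA known from cartilage, Mir15b (0.39) and Mir221 (0.44), a miRNA of vessel cells. For Mir199a-2 they were Mir488 (0.10), Mir7212 (0.17) and Mir133a-2 (0.31). Nearest to Mir199b were Mir702 (0.22), Mir672 (0.34) and Mir329 (0.35). Mir199a-1 shared its counts of 3 and 0 reads with 13 other genes, Gm23388, Gm25263 and Mir1893 among them, so its nearest genes say only that it lay at the floor.

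Strand did not affect the counts of the 4 genes. The column for the opposite strand held 0 reads at each of them in both libraries, and the column for either strand held the same counts as the sense column. The levels did depend on the column, because the total over miRNA genes is smaller for either strand. With that column the mean rose from 2871 to 3871 CPM for Mir214 and from 5.48 to 7.38 for Mir199a-2. For Mir199b it rose from 10.3 to 13.9 CPM, and the share of the 4 genes from 0.289% to 0.389%. With 0 reads on the opposite strand, the strand of the dynamin genes added nothing to these values. Dnm3os lies on the same strand as Mir214 and Mir199a-2. Fragments of its exons over these 2 hairpins would be counted with them, and their number was not tested.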

How the data were processed

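Small RNA of heart tissue was measured in 2 libraries. The authors deposited raw read counts per miRNA gene, in 1 table for each library, with counts for either strand and for each strand alone. The build is mm10 (GRCm38) per the labels, and the annotation GENCODE M21 per the text beside the tables. Aligner, counter and trimming: not given in the sources used here. The 4 summary lines (unmapped, multimapped, outside genes, ambiguous) stayed out of library totals. They held 34.3%, 32.5%, 6.27% and 0 reads of replicate 2, and 19.4%, 40.7%, 7.79% and 0 reads of replicate 1, in the sense column.

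All 2202 gene IDs matched GENCODE M21. Column 3 was taken as the sense column because it holds more reads in miRNA genes than column 4 in both libraries. CPM is the count divided by the library's total in miRNA genes, times 1000000. Counts were not divided by hairpin length, because a small RNA read stands for 1 molecule. Intervals are at the 95% level: Wilson for shares, exact Poisson for counts, exact binomial (Clopper-Pearson) for ratios and conditional exact for ratios of ratios. The floor is 3 reads. They cover only counting error, since no molecular identifiers are recorded.

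Replicates were compared with an exact two-sided binomial test given the library totals, over genes whose reads in both libraries summed to 10 or more, with Benjamini-Hochberg adjustment over all of them and a threshold of 0.05. With 1 group no quasi-likelihood fit was possible. The exact test of edgeR 4.0.16 with a common dispersion (0.164, from the 321 genes with at least 10 reads in each library) was an alternative, as were size factors of DESeq2 1.42.0. Other work used R 4.3.3, Python 3.11.15, scipy 1.17.1, pandas 2.3.3 and matplotlib 3.10.9.

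Sequences are from RefSeq (GRCm38.p6), which matched all 4 genes. A mature sequence was called shared when it occurs exactly in another of the 2202 GENCODE hairpins. The rest of the genome was not searched. Genes named are the 4 members, the 3 genes nearest to each in log2(CPM + 1) of both libraries, miRNA genes within 10000 bases, the genes of the lists below and, chosen after values were seen, the leading neighbour pairs and the highest of the genes with shared sequences. Members and lists were chosen with earlier results of these data known, and the counts of shared sequences were designed after the values were seen. In replicates 2 and 1, cardiomyocyte miRNAs took 1.48% and 1.08% of miRNA reads, endothelial 11% and 8.52%, smooth muscle 4.06% and 4.57%, leukocyte 0.689% and 0.614%. Mir142a, of the leukocyte list, was not matched by name, so the leukocyte shares leave it out. The annotation holds genes of similar name, which were not used in its place.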

Additional observations from a re-analysis of the deposited data

How the results depend on the processing

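With CPM taken per 1000000 of all reads listed, in place of reads in miRNA genes, the mean levels became 824 for Mir214, 1.58 for Mir199a-2 and 3.11 for Mir199b, and the share of the 4 genes became 0.0829%. The larger total by itself lowers every value. With the common dispersion of edgeR, 12 genes in place of 224 differed between the libraries, and Mir214 (0.96) and Mir199b (-0.85) were no longer called. That dispersion comes from the same 2 libraries, so the lower count is no measure of how alike they are. The other 55 of 62 alternatives kept values within their spread or calls on their side of the threshold. The number of called genes in them ranged from 184 to 228. Many of these outcomes were fixed beforehand. With 2 libraries, leaving out 1 always moves a mean by less than its SD. The 4 genes have the same counts in the either-strand column, so their ratios could not move. No tested member had 0 reads, so putting 1 read in place of 0 could not change its value. TMM and DESeq2 size factors moved log2 ratios by -0.01 and -0.02. Leaving out 1 replicate gave means of 1935 to 3808 CPM for Mir214, 3.95 to 7 for Mir199a-2, 7.38 to 13.2 for Mir199b and 0 to 0.568 for Mir199a-1, a share of 0.195% to 0.382%, and log2 ratios of 8.94 to 9.09 for Mir214 over Mir199a-2. For Mir199b over the miR-199a copies the range was -0.04 (without replicate 1) to 1.74 (without replicate 2), so its direction rests on replicate 1. Mir199a-1 alone could not serve as denominator, with 0 reads in replicate 1, and the comparison of replicates needs both. No paired analysis was possible because there is 1 group.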
